A study of Homo sapiens with 4 samples.

Results

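To determine how 2 independently derived enzalutamide (ENZ)-resistant prostate cancer lines differed from each other, the single-cell RNA library of RES-B was compared with that of RES-A across all measured genes. Cells were kept where a barcode held at least 1500 genes and at least 5000 unique molecular identifiers (UMIs, each counting 1 captured RNA molecule) with under 20% of UMIs from mitochondrial genes. This left 4629 RES-A cells and 4239 RES-B cells, which made 8868 of the 15452 cells kept in the series and 2 of its 4 libraries. Both lines came from LNCaP, an androgen-sensitive human prostate cancer cell line, and both were labelled resistant and kept in 10 µM ENZ. By the study's methods, RES-A was passaged in rising concentrations of ENZ, whereas RES-B was held continuously in RD-162, a related antiandrogen. The other libraries were parental LNCaP given 0.1% DMSO as vehicle for 48 h and LNCaP given 10 µM ENZ for 48 h (LNCaP-ENZ48), both labelled sensitive. Living cells were sorted from each culture before capture. Each line was present as 1 library, so no difference below has a replicate check, and the drug history, the line and the culture cannot be told apart.

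Androgens drive the secretory programme of luminal prostate cells, including the kallikrein proteases. Antiandrogens such as ENZ block this response. Resistant cells may regain part of the androgen response, change how they clear androgens, or grow without it, and lines from the same parent need not share a route.

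Depth was close in both libraries. The kept cells held 58657527 UMIs in RES-A (median 12164 UMIs in a cell) and 57709230 in RES-B (median 12480). Mitochondrial genes took 10.5% of UMIs in RES-A and 12.2% in RES-B, and cytosolic ribosomal protein genes took 30.01% and 26.8%. All 8 luminal epithelial markers were above 10 CPM (UMIs of a gene scaled to a common library total) in both lines. In a short panel of defining markers of basal, neuroendocrine, stromal, endothelial and blood cells, none reached 10 CPM in either line, although VIM and some neuroendocrine secretory genes outside the panel did. The summed level of the 4 basal markers was 0.0341 CPM in RES-A against 0.0173 CPM in RES-B, and that of the 5 neuroendocrine markers was 3.75 CPM and 3.41 CPM. The defining markers KRT5, TP63, CHGA and PTPRC were at 0 UMIs in both, which allows up to 3 UMIs per library. The lines shared 3 barcodes, 0.0708% of the RES-B cells. S-phase calls covered 11.02% of cells in RES-A but 7.88% in RES-B, and every ratio was also computed within G1 cells.

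UMIs were summed per gene in each library and expressed as CPM, and differences are given as log2 ratios of RES-B over RES-A with 95% intervals from the exact binomial distribution, which cover counting error only. In such sums, fewer cells holding a gene and less RNA per cell cannot be told apart. Over the 7509 genes that averaged 10 CPM or more in both lines together, the median log2 ratio was 0.09, and 82.3% of genes were within 1.5-fold. The log2 ratio was above 0 for 59.0% of these genes. In all, 244 genes were at least 2-fold higher in RES-B (3.25% of the genes tested) and 129 were at least 2-fold lower (1.72%). At least 4-fold differences were found for 49 and 33 genes, and at least 10-fold differences for 20 and 12 genes. Where 4 levels of a gene are given, they are those of LNCaP, LNCaP-ENZ48, then RES-A and last RES-B; where 2 are given, RES-A comes first. Values in parentheses after them are the log2 ratio of RES-B over RES-A with its interval. These shares and the median of all genes are the background for every gene list below.

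**Figure D1:**
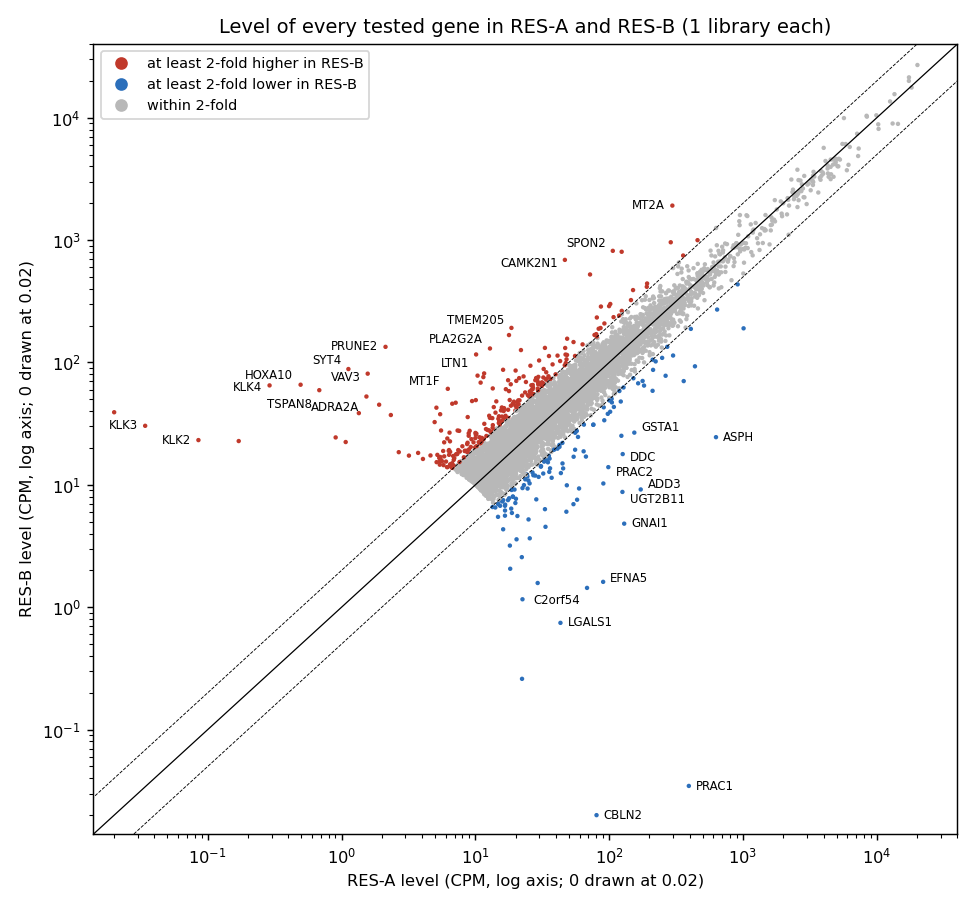
Level of each of the 7509 tested genes in RES-A (x axis) and RES-B (y axis) in CPM on log axes, with 1 library a line, 244 genes at least 2-fold higher in RES-B in red and 129 at least 2-fold lower in blue, and a count of 0 drawn near the axis edge. Most genes lie between the dashed 2-fold lines, whereas KLK2, KLK3, KLK4 and HOXA10 lie far to the upper left and PRAC1 and CBLN2 far to the lower right.

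The kallikreins were among the largest differences between the lines. These secreted serine proteases, among them the prostate-specific antigen KLK3, are classical androgen-induced genes. Of 15 kallikrein genes, 3 passed the minimum level and all 3 were at least 2-fold higher in RES-B. They passed through RES-B alone and so had to differ, and their count is a description. The same holds for 87 of the 244 genes higher in RES-B, which were under 10 CPM in RES-A, and for 53 of the 129 lower ones, which were under 10 CPM in RES-B. KLK3 was at 733 CPM in LNCaP, 93.8 CPM in LNCaP-ENZ48 and 0.0341 CPM in RES-A, against 30.4 CPM in RES-B. KLK2 was at 321, 26.2, 0.0852 and 23.2 CPM in the same order, and KLK4 at 146, 34.6, 0.2898 and 64.9 CPM. RES-A had nearly none of the 3. In RES-B, KLK3 and KLK2 lay below acutely treated LNCaP and KLK4 above it, all 3 under the untreated level. The log2 ratio of RES-B over RES-A was 9.80 for KLK3 (7.94 to 12.85, with 2 UMIs in RES-A), 8.09 for KLK2 (6.86 to 9.71) and 7.81 for KLK4 (7.13 to 8.59). In cells thinned to 5000 UMIs, a KLK3 UMI was found in 0.0216% of RES-A cells and 9.15% of RES-B cells, and a KLK4 UMI in 0.194% and 25.8%, with no other cell type in the series to serve as a background.

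The 250 bases before the start of KLK3 and KLK2 are shown because both genes lie side by side on chromosome 19 and differed together. They are from RefSeq on GRCh38.p14, on the plus strand, at chr19:50854665-50854914 for KLK3 and chr19:50873189-50873438 for KLK2. Capitals mark AGAACA, one form of the hexamer half-site of hormone response elements, searched on both strands (TGTTCT on the other).
KLK3: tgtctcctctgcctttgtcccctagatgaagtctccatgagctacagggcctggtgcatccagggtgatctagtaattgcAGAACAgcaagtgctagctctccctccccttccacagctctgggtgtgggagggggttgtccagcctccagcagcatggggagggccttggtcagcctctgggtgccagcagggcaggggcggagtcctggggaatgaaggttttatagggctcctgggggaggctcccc
KLK2: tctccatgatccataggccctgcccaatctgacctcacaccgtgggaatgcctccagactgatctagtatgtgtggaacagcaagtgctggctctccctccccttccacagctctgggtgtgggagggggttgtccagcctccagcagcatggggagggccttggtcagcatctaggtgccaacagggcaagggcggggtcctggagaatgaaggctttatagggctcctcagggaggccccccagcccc
KLK3 held 1 match, at -170 to -165 from the gene start, and KLK2 held no exact match. KLK2 reads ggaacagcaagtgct where KLK3 reads AGAACAgcaagtgct, and the search did not count such near matches. Over all 27305 promoters of this length, 12.4% held a match.

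Other androgen-induced genes followed the kallikreins in some members but not in their median. Of 29 such genes, 16 were tested. At least 2-fold higher in RES-B were 4 (background 3.25%), and none was 2-fold lower (background 1.72%). Of these, TMPRSS2 passed the minimum through RES-B alone and so had to be higher there, so that the count is in part a description. Their median log2 ratio was 0.18 against 0.09 for all genes. NDRG1, a stress- and androgen-induced growth regulator, was at 30.7 CPM in LNCaP, 30.96 CPM in LNCaP-ENZ48 and 10.1 CPM in RES-A, against 49.2 CPM in RES-B (log2 ratio 2.29, 2.16 to 2.42). RES-A was the lowest and RES-B the highest library for this gene. The membrane protease TMPRSS2 was at 7.45 CPM in RES-A against 19.2 CPM in RES-B (1.37, 1.21 to 1.53). In contrast, SORD, the sorbitol dehydrogenase with the highest level in the list, was at 93.4 and 91.2 CPM, a log2 ratio of -0.03 (-0.09 to 0.02), and FKBP5, a receptor cochaperone, at 17.9 and 15.6 CPM (-0.20, -0.33 to -0.07).

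Of 33 nuclear receptors 11 were tested, and 2 were past 2-fold, both lower in RES-B. Both passed the minimum through RES-A alone, so that the count is a description. The orphan receptor NR2F1 was nearly absent from both sensitive cultures (0.0359 and 0.0147 CPM) and was at 57.6 CPM in RES-A against 7.56 CPM in RES-B, a log2 ratio of -2.93 (-3.08 to -2.79). The thyroid hormone receptor THRB was at 12.5, 6.73, 33.4 and 4.54 CPM, a log2 ratio of -2.88 (-3.07 to -2.69). RES-A therefore had the highest level of both genes among the 4 libraries. The 9 other tested receptors of this list were all within 2-fold. Of 13 glucocorticoid-induced genes 5 were tested, all 5 above 0, with a median of 0.50. The largest of these differences was in TSC22D3, a leucine-zipper protein strongly induced by glucocorticoids, which was at 66.8 CPM in LNCaP, 68.6 CPM in LNCaP-ENZ48 and 11.47 CPM in RES-A, against 75.9 CPM in RES-B (2.73, 2.61 to 2.85). NFKBIA, an inhibitor of NF-kappa-B, was at 55.1 and 55.8 CPM in RES-A and RES-B (0.02, -0.05 to 0.09).

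The UGT2B enzymes differed in the opposite sense. They attach glucuronic acid to small molecules, which for some family members include androgens. Androgen clearance itself was not measured. Of 7 family members 4 were tested, and all 4 were at least 2-fold lower in RES-B, with a median log2 ratio of -3.07. UGT2B11, UGT2B10 and UGT2B17 passed the minimum through RES-A alone, so that this count and median are a description. UGT2B11 was at 3.48 CPM in LNCaP, 3.77 CPM in LNCaP-ENZ48 and 126 CPM in RES-A, against 8.75 CPM in RES-B (-3.84, -3.98 to -3.71). UGT2B15 was at 10.6, 33.6, 123 and 25.2 CPM (-2.29, -2.38 to -2.21), and UGT2B10 at 0.341, 0.367, 29.2 and 1.58 CPM (-4.21, -4.53 to -3.91). For these 3 genes RES-A was highest and RES-B was above untreated LNCaP. The other tested member, UGT2B17, was at 24.96 CPM in RES-A against 5.22 CPM in RES-B (-2.26, -2.44 to -2.08). All 4 tested members exceeded LNCaP in RES-A. Only 3 of the 4 did so in RES-B, and UGT2B17 was the exception. UGT2B28, under the minimum level, was at 12.2 CPM in RES-A against 0.381 CPM in RES-B (-5.005, -5.69 to -4.40). Members of this family are close in sequence, so that reads may have been split among them. Among 9 tested steroid-converting enzymes, 2 were at least 2-fold higher in RES-B (background 3.25%). HSD17B12, which passed the minimum through RES-B alone, was at 6.41 and 26.7 CPM (2.06, 1.89 to 2.22). AKR1C3, which makes testosterone from weaker androgens, was at 11.1 and 23.6 CPM (1.09, 0.95 to 1.23). In the sensitive cultures AKR1C3 was at 0.575 and 0.381 CPM, below both resistant lines.

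Ranking genes with at least 50 CPM in the higher line gave 15 at each end, and the parental level placed them in different classes. Among the 15 highest in RES-B, LNCaP was within 2-fold of RES-B but not RES-A for 4 genes, within 2-fold of RES-A but not RES-B for 4, and within 2-fold of neither for 7. The first class held SYT4, PRUNE2, TMEM205 and ABHD2. SYT4, a vesicle membrane synaptotagmin, was at 83.04 CPM in LNCaP, 108 CPM in LNCaP-ENZ48 and 1.13 CPM in RES-A, against 88.3 CPM in RES-B (6.29, 5.94 to 6.67). PRUNE2 was at 113, 69.5, 2.13 and 134 CPM (5.98, 5.72 to 6.24), and TMEM205 at 194, 253, 18.6 and 192 CPM (3.36, 3.27 to 3.46). These genes were low in RES-A alone. The second class held ADRA2A, CAMK2N1, LTN1 and ATP11A, which were high in RES-B alone or, for CAMK2N1, also above LNCaP in LNCaP-ENZ48. ADRA2A, an adrenergic receptor that couples to inhibitory G proteins, was at 1.13, 1.94, 1.53 and 52.7 CPM (5.10, 4.80 to 5.42). LTN1, a ubiquitin ligase of ribosome quality control, was at 8.64, 10.1, 10.1 and 116.2 CPM (3.52, 3.40 to 3.64).

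The third class held genes on which neither line matched the parent. HOXA10, a homeobox factor of urogenital patterning, was at 5.96 CPM in LNCaP, 6.68 CPM in LNCaP-ENZ48 and 0.494 CPM in RES-A, against 65.8 CPM in RES-B (7.06, 6.53 to 7.64). The tetraspanin TSPAN8 was at 0.0898, 0.04401, 0.682 and 59.3 CPM (6.44, 5.995 to 6.93), and VAV3, a guanine nucleotide exchange factor, at 0.557, 0.543, 1.57 and 80.97 CPM (5.69, 5.39 to 6.004). PLA2G2A, a secreted phospholipase, was at 2.96, 7.61, 12.9 and 130.1 CPM (3.34, 3.23 to 3.45), the highest in RES-B with RES-A next. SPON2, a secreted matrix protein, was at 391, 293, 106 and 816 CPM (2.94, 2.90 to 2.98).

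Among the 15 genes lowest in RES-B, LNCaP was within 2-fold of RES-B alone for 5 (GNAI1, RDH10, SEMA3C, DDC and GSTA1), within 2-fold of RES-A alone for 4 (PRAC1, EFNA5, PRAC2 and BTG3) and of neither for 6. GNAI1, an inhibitory G-protein subunit, was at 6.86 CPM in LNCaP, 5.93 CPM in LNCaP-ENZ48 and 129 CPM in RES-A, against 4.82 CPM in RES-B (-4.75, -4.93 to -4.57). SEMA3C, a secreted guidance semaphorin, was at 6.61, 5.47, 54.1 and 6.95 CPM (-2.96, -3.11 to -2.81). Both were high in RES-A alone. EFNA5, a membrane-anchored ligand of Eph receptors, was at 79.8, 97.5, 90.1 and 1.61 CPM (-5.80, -6.12 to -5.51), low in RES-B alone. CBLN2 was at 8.85 CPM in LNCaP, 19.5 CPM in LNCaP-ENZ48 and 80.4 CPM in RES-A but at 0 UMIs in RES-B, at least 1547-fold lower when 3 UMIs are set for the 0. ASPH, an ER-anchored hydroxylase, was at 50.2, 49.7, 628 and 24.5 CPM (-4.68, -4.76 to -4.60), and the cytoskeletal adducin ADD3 at 19.9, 17.4, 172 and 9.17 CPM (-4.23, -4.36 to -4.10). C2orf54 was at 0.0359 CPM in LNCaP, 0.352 CPM in LNCaP-ENZ48 and 68.3 CPM in RES-A, against 1.44 CPM in RES-B (-5.57, -5.90 to -5.26), so that RES-A again stood apart.

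**Figure D2:**
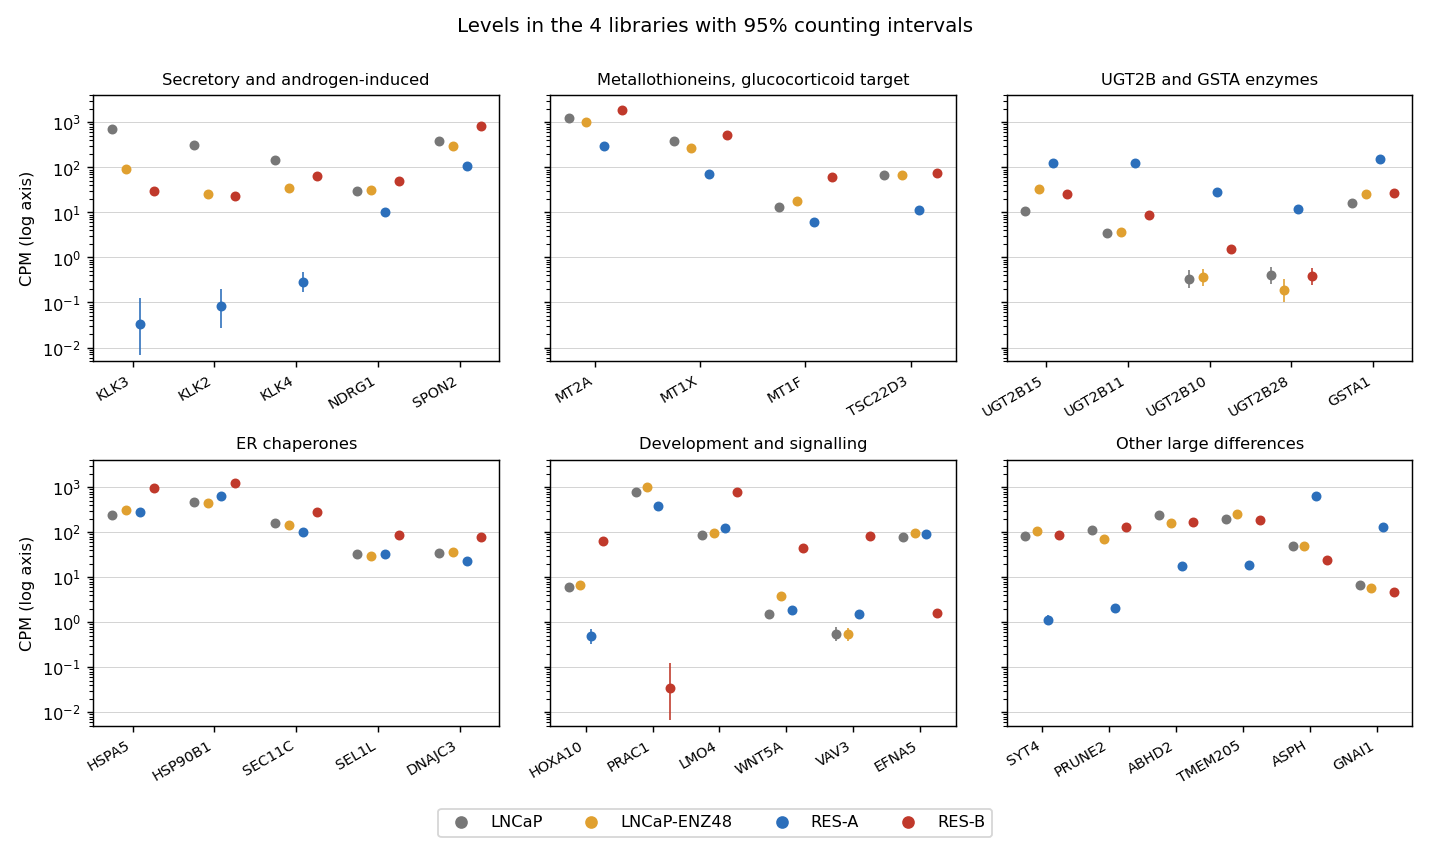
Level of selected genes (CPM, log axis) in each of the 4 libraries; points are levels and bars are 95% Poisson counting intervals, often narrower than the point. The UGT2B genes, GSTA1, ASPH and GNAI1 are highest in RES-A; the metallothioneins and ER chaperones shown are highest in RES-B; PRAC1 and EFNA5 are low in RES-B alone.

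A difference shared by all tested members of a list was found for the endoplasmic reticulum (ER). The ER folds secreted and membrane proteins, and its chaperones are induced together when unfolded protein builds up there. Of 24 ER chaperone and unfolded protein response genes, 22 were tested. All 22 were above 0 and 8 were at least 2-fold higher in RES-B (background 3.25%), with none 2-fold lower and a median log2 ratio of 0.86 against 0.09 for all genes. HSPA5 (BiP), the main ER chaperone and sensor of unfolded protein, was at 245 CPM in LNCaP, 311 CPM in LNCaP-ENZ48 and 288 CPM in RES-A, against 959 CPM in RES-B (1.73, 1.71 to 1.76). DNAJC3, a cochaperone of HSPA5, was at 34.6, 36.3, 22.9 and 76.9 CPM (1.75, 1.66 to 1.84), and SEL1L, which carries misfolded proteins towards degradation, at 33.7, 30.3, 32.4 and 88.4 CPM (1.45, 1.37 to 1.53). RES-B was the highest of the 4 libraries for each, and the other 3 libraries lay within 2-fold of one another. SEC11C, a subunit of the signal peptidase, was at 158, 146, 99.8 and 288 CPM (1.53, 1.49 to 1.57). HSP90B1, the ER form of HSP90 and the most abundant member, was at 629 CPM in RES-A against 1255 CPM in RES-B, 2.00-fold higher but just under the 2-fold line at a log2 ratio of 0.997 (0.98 to 1.01). Against LNCaP, the list median was -0.15 in RES-A, with 8 of 22 genes above 0, and 0.88 in RES-B, with 21 of 22 above 0. The difference was also measured within G1 cells, where the log2 ratio was 1.75 for HSPA5 and 1.70 for DNAJC3. In S-phase cells it was 1.26 for HSPA5, 1.42 for DNAJC3 and 0.57 for HSP90B1, each below its G1 value.

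The promoters of 3 ER chaperone genes are shown because the ER stress element, CCAAT and CCACG with any 9 bases between them, occurs in few promoters. Capitals mark its fixed letters, which read CGTGG and ATTGG where the element lies on the opposite strand. The sequences are 250 bases before the gene start from RefSeq on GRCh38.p14, at chr9:125241344-125241593 on the minus strand for HSPA5, chr12:103930160-103930409 on the plus strand for HSP90B1 and chr22:49918384-49918633 on the plus strand for CRELD2.
HSPA5: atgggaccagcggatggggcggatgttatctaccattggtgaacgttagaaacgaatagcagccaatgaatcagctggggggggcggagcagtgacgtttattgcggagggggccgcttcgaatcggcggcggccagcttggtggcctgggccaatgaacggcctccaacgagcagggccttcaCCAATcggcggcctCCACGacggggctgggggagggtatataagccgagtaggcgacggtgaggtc
HSP90B1: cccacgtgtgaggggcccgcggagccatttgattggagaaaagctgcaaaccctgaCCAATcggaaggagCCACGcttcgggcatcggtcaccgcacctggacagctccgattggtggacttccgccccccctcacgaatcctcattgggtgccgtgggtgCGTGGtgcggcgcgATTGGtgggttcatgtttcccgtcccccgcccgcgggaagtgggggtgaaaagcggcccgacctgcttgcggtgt
CRELD2: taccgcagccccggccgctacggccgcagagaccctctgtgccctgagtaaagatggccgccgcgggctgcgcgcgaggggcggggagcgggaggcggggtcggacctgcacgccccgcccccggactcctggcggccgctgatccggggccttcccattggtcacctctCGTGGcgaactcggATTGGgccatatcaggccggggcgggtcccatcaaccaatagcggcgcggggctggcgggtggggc
HSPA5 held 1 match at -66 to -48 on the same strand. HSP90B1 held 2, at -194 to -176 on the same strand and -89 to -71 on the opposite strand, and CRELD2 held 1 at -80 to -62 on the opposite strand. Of the 22 tested members 4 held the element (these 3 and XBP1), against 0.0806% of all 27305 promoters. This share describes the list and not the difference between the lines. HSPA5 (log2 ratio 1.73) held the element, whereas DNAJC3 (1.75), SEC11C (1.53) and SEL1L (1.45) did not. A role of the element in the difference was not tested. CRELD2, a secreted ER stress protein named here for its promoter, was at 61.05 CPM in RES-A against 109.6 CPM in RES-B.

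RNA of most genes for antigen presentation by MHC class I, which is loaded in the ER, was higher in RES-B as well. Of 19 genes 10 were tested, and 9 were above 0 (background 59.0%), with a median of 0.89. At least 2-fold higher were 4 (background 3.25%), and none was 2-fold lower. Of these 4, the chaperones CALR and PDIA3 also serve general ER folding. HLA-B was at 51.8 CPM in LNCaP, 64.1 CPM in LNCaP-ENZ48 and 41.1 CPM in RES-A, against 114 CPM in RES-B (1.47, 1.40 to 1.54). HLA-C was at 94.4, 103, 79.99 and 170.3 CPM (1.09, 1.04 to 1.14), and CALR at 336, 381, 457 and 998 CPM (1.13, 1.11 to 1.15). The HLA genes were highest in RES-B and lowest in RES-A. They are near copies of one another and map to chromosome 6, whose genes had a median of 0.22. HLA-B and HLA-C lie in chr6:30000001-40000000, where the median was 0.35 and 68 of 81 tested genes were above 0. Interferon-stimulated genes, which often move with HLA genes, did not share this direction: all 6 tested of 32 were below 0, none reached 2-fold, and the median was -0.34. ISG15, a ubiquitin-like protein and the most abundant of them, was at 89.7, 105, 117 and 80.4 CPM (-0.54, -0.59 to -0.49). IFI35, under the minimum level, was at 13.6 CPM in RES-A against 4.04 CPM in RES-B (-1.75, -1.97 to -1.54).

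Metallothioneins, small cysteine-rich proteins that bind zinc and copper, were higher in RES-B. Of 11 genes 3 were tested, all 3 were at least 2-fold higher in RES-B (background 3.25%), and the median log2 ratio was 2.86. MT1F passed the minimum through RES-B alone. MT2A was at 1284 CPM in LNCaP, 1010.1 CPM in LNCaP-ENZ48 and 296 CPM in RES-A, against 1912 CPM in RES-B (2.69, 2.67 to 2.71). MT1X was at 397, 273, 71.9 and 523 CPM (2.86, 2.82 to 2.91), and MT1F at 12.98, 17.5, 6.22 and 60.9 CPM (3.29, 3.13 to 3.45). RES-A was lowest and RES-B highest for each of the 3, with both sensitive cultures between. A UMI of MT2A was found in 62.9% of RES-A cells and 90.3% of RES-B cells after thinning. Zinc transporters as a list had a median of 0.27, with 1 of 16 tested genes (SLC39A7, which moves zinc out of the ER, 35.1 and 70.8 CPM) at least 2-fold higher in RES-B and none lower. SLC39A7 stood at the 2-fold line (1.01, 0.94 to 1.09) and fell short of it when another scaling was used.

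The promoters of MT2A and MT1X are shown because both genes differed together and carry the zinc-responsive metal response element. Capitals mark its core, TGCACNC or TGCGCNC, searched on both strands (GNGTGCA or GNGCGCA on the other). The sequences are 250 bases before the gene start from RefSeq on GRCh38.p14, on the plus strand, at chr16:56608334-56608583 for MT2A and chr16:56682220-56682469 for MT1X.
MT2A: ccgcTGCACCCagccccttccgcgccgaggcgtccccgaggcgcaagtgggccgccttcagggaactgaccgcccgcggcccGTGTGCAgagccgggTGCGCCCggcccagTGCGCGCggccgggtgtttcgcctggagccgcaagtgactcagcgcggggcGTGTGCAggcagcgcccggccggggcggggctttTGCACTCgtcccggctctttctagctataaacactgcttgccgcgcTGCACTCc
MT1X: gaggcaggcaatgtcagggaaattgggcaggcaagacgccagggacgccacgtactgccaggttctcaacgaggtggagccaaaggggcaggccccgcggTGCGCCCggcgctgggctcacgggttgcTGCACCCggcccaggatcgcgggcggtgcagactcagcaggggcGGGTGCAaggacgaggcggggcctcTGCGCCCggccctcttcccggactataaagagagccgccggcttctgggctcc
MT2A held 7 matches and MT1X held 4. Over all 27305 promoters of this length, 24.7% held at least 1.

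Glutathione and NRF2 target genes, which detoxify electrophiles, stayed near the background as a list and differed in a few members. Of 33 genes 21 were tested, 14 were below 0, 3 were at least 2-fold lower in RES-B and none was higher, with a median of -0.08. GSTA1, a glutathione S-transferase, was at 16.4 CPM in LNCaP, 26.3 CPM in LNCaP-ENZ48 and 154 CPM in RES-A, against 26.7 CPM in RES-B (-2.53, -2.61 to -2.45). GCLC, which catalyses the first step of glutathione synthesis, was at 8.92, 8.55, 34.1 and 15.7 CPM (-1.12, -1.23 to -1.003). Both were highest in RES-A. The GCLC log2 ratio was -1.36 within G1 cells but -0.22 within G2M cells. PRDX1, the most abundant member, was at 1471 CPM in RES-A against 1602 CPM in RES-B (0.12, 0.11 to 0.14).

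Lipid synthesis and hypoxia lists had higher medians in RES-B, mostly by amounts under 2-fold. The background for the counts above 0 was again the 59.0% of all tested genes. Of 24 cholesterol synthesis genes 19 were tested, 17 were above 0, 2 were at least 2-fold higher, and the median was 0.49. SC5D, a sterol desaturase, was at 26.6 CPM in LNCaP, 24.8 CPM in LNCaP-ENZ48 and 15.1 CPM in RES-A, against 33.2 CPM in RES-B (1.14, 1.02 to 1.25). In contrast TM7SF2, a sterol reductase and the most abundant member, was lower in RES-B, at 300.5 CPM in RES-A against 224 CPM in RES-B (-0.43, -0.46 to -0.39). Fatty acid synthesis had a median of 0.41 over 15 tested genes of 22, with 10 above 0 and none past 2-fold in either direction. FASN, the fatty acid synthase, was at 131 and 151 CPM (0.21, 0.16 to 0.25).

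Of 27 hypoxia response genes 20 were tested, 17 were above 0 and 2 were at least 2-fold higher in RES-B, with a median of 0.69. INSIG2, an ER protein that restrains sterol synthesis, was at 15.3 CPM in LNCaP, 21.1 CPM in LNCaP-ENZ48 and 33.1 CPM in RES-A, against 131 CPM in RES-B (1.99, 1.92 to 2.06). BNIP3L, a receptor for the removal of mitochondria, was at 117, 144, 92.04 and 208 CPM (1.18, 1.13 to 1.22), and its relative BNIP3 at 408, 422, 300.4 and 591 CPM (0.98, 0.95 to 1.002). PLOD2, a collagen lysyl hydroxylase under the minimum level, was at 1.45, 1.54, 1.36 and 16.2 CPM (3.57, 3.24 to 3.92). For each of these RES-B was the highest library. Glycolysis, which hypoxia also raises in many cells, had a median of 0.14 over 16 tested genes, none of them past 2-fold. GAPDH, its most abundant member, was at 5076 CPM in RES-A against 4014 CPM in RES-B (-0.34, -0.35 to -0.33).

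Lineage genes differed in single members more than as lists. Of 17 luminal lineage factors 11 were tested, with a median of 0.33. LMO4, a LIM-only adaptor of transcription complexes, was at 86.4 CPM in LNCaP, 97.6 CPM in LNCaP-ENZ48 and 124 CPM in RES-A, against 802 CPM in RES-B (2.69, 2.66 to 2.73). SOX9, a progenitor-cell factor, was at 1.67, 4.37, 7.365 and 27.8 CPM (1.92, 1.76 to 2.07), whereas PITX1, a homeobox factor, was at 49.9, 50.6, 165 and 67.5 CPM (-1.28, -1.34 to -1.23). LMO4 and SOX9 were highest in RES-B and PITX1 in RES-A. In the HOXB region, PRAC1 was at 776, 1014, 394 and 0.0347 CPM (2 UMIs in RES-B, log2 ratio -13.47, -16.52 to -11.62) and its neighbour PRAC2 at 121, 141, 98.5 and 13.9 CPM (-2.82, -2.93 to -2.71). HOXB13, the prostate homeobox marker beside them, was at 91.7 CPM in RES-A against 92.1 CPM in RES-B (0.01, -0.05 to 0.06). In the HOXC cluster, HOXC6 was at 11.7 and 31.5 CPM (1.43, 1.31 to 1.56) and HOXC9 at 10.7 and 24.5 CPM (1.19, 1.06 to 1.33).

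Of 22 mesenchymal genes 3 were tested, and 2 of these were at least 2-fold lower in RES-B (background 1.72%). LGALS1 passed the minimum through RES-A alone, so that this count is a description. VIM, an intermediate filament of mesenchymal cells, was at 1.98 CPM in LNCaP, 2.22 CPM in LNCaP-ENZ48 and 211 CPM in RES-A, against 58.6 CPM in RES-B (-1.85, -1.90 to -1.79), and the galectin LGALS1 at 1.72, 1.91, 43.2 and 0.745 CPM (-5.86, -6.33 to -5.42). VIM was above both sensitive cultures in each resistant line, but LGALS1 only in RES-A. Epithelial keratins and junction genes had a median of 0.31 over 13 tested genes, with KRT18 at 637 and 907 CPM (0.51, 0.49 to 0.53) and the tight junction scaffold TJP1 at 37.7 and 96.4 CPM (1.35, 1.28 to 1.42). Of 5 tested neuroendocrine secretory genes, SYT4 was at least 2-fold higher in RES-B and 2 were at least 2-fold lower. SYT4 passed the minimum through RES-B alone and ENO2 through RES-A alone. DDC, the decarboxylase that makes dopamine and serotonin, was at 24.1, 68.3, 126 and 17.8 CPM (-2.82, -2.92 to -2.73), and the enolase ENO2 was at 15.1, 19.3, 18.5 and 6.39 CPM (-1.54, -1.71 to -1.36).

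The Wnt, ephrin and insulin-like growth factor lists had medians of 0.20, 0.29 and 0.20, within 0.25 of all genes, and single members differed. WNT5A, a ligand of non-canonical Wnt signalling, was at 1.54 CPM in LNCaP, 3.81 CPM in LNCaP-ENZ48 and 1.91 CPM in RES-A, against 45.2 CPM in RES-B (4.56, 4.29 to 4.85). Its receptor family member FZD4 was at 1.04, 0.616, 6.14 and 13.9 CPM (1.18, 1.003 to 1.37), above the sensitive cultures in both lines. The remaining 4 tested Wnt genes of 32 were within 2-fold. EFNB2, a transmembrane ligand of EphB receptors, was at 21.1, 16.2, 8.76 and 35.8 CPM (2.03, 1.89 to 2.17), opposite in direction to EFNA5. EGFR, the epidermal growth factor receptor, was at 26.6, 20.04, 5.63 and 15.5 CPM (1.47, 1.28 to 1.65), and ERBB3, its neuregulin-binding relative, at 58.4, 46.5, 69.7 and 119 CPM (0.77, 0.71 to 0.83). WNT5A, FZD4, EFNB2 and EGFR passed the minimum through RES-B alone and so had to be higher there.

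The binding proteins of insulin-like growth factors split. IGFBP5 was at 0.01795 CPM in LNCaP, 0.103 CPM in LNCaP-ENZ48 and 300.1 CPM in RES-A, against 114 CPM in RES-B (-1.40, -1.44 to -1.36), and IGFBP2 at 161, 149, 249 and 109 CPM (-1.19, -1.23 to -1.15). IGFBP3, which binds most circulating insulin-like growth factor, was higher in RES-B, at 1.04, 1.34, 8.92 and 25.2 CPM (1.497, 1.35 to 1.64). IGFBP5 and IGFBP3 were above both sensitive cultures in each resistant line. Of 8 tested Notch genes the one past 2-fold was HES6, a neurogenic helix-loop-helix factor, at 111, 51.3, 66.999 and 17.02 CPM (-1.98, -2.08 to -1.88). Among 5 tested TGF-beta, BMP and inhibin genes the one past 2-fold was ID1, a BMP target, at 9.103, 9.98, 16.6 and 5.597 CPM (-1.57, -1.76 to -1.39). IGFBP3 passed the minimum through RES-B alone and ID1 through RES-A alone. CDKN1A (p21), the p53-induced inhibitor of cyclin-dependent kinases, was at 59.7, 44.3, 55.6 and 19.4 CPM (-1.52, -1.62 to -1.42), the only one of 13 tested G1 regulators past 2-fold.

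Several other lists stayed near the background. The 23 tested ATF4 target genes had a median of 0.09, none of them past 2-fold. The 20 cytosolic tRNA synthetases had a median of 0.06, with 1 gene past 2-fold, AARS, the alanine enzyme, at 129 CPM in LNCaP, 119.5 CPM in LNCaP-ENZ48 and 46.9 CPM in RES-A, against 131 CPM in RES-B (1.49, 1.42 to 1.55). The 18 tested cytosolic heat shock chaperones had a median of 0.09, with HSPH1 alone past 2-fold at 48.4 and 115 CPM (1.25, 1.19 to 1.31). Medians were 0.11 for 13 mitochondrially encoded genes, -0.12 for 10 BCL2 family genes, 0.18 for 12 polyamine genes, -0.07 for 9 iron genes, 0.02 for 13 tetraspanins, 0.10 for 8 prostate surface antigens and 0.05 for 8 integrins and laminins. Across the 40 lists with at least 3 tested genes, 16 medians lay at least 0.25 from that of all genes, 9 of them higher and 7 lower. The kallikrein and UGT2B medians rest wholly or mostly on genes that passed the minimum through a single line. Some members of other lists did so too, such as MT1F, LGALS1, PRAC1, EGFR and ID1. This tally is therefore a description. The higher ones were the kallikreins, metallothioneins, MHC class I, ER chaperone, EGF receptor, hypoxia, glucocorticoid, cholesterol and fatty acid lists. The lower ones were the UGT2B, HOXB, mesenchymal, interferon, Notch, cancer-testis and TGF-beta lists. The HOXB list had 3 tested genes, and its low median came from PRAC1 and PRAC2. HOXB13, its only tested homeobox gene, was at 0.01.

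**Figure D3:**
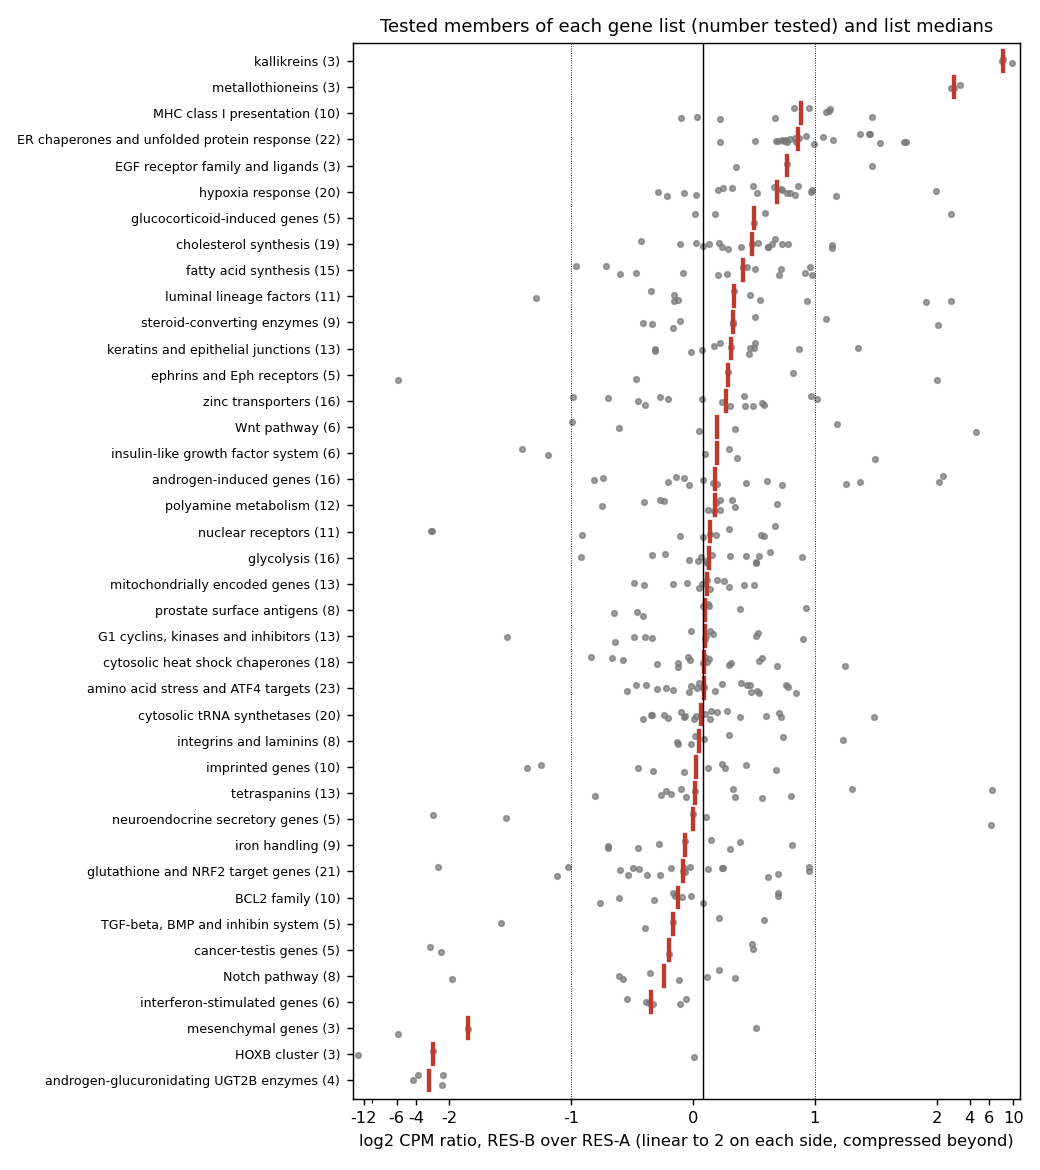
Log2 CPM ratio of RES-B over RES-A (x axis, linear to 2 on each side and compressed beyond) for each tested member (grey points) of the 40 lists with at least 3 tested genes, with list medians as red bars, the median of all genes (0.09) as a black line and 2-fold as dotted lines. All 22 ER chaperone genes lie above 0, and the 4 UGT2B genes lie beyond 2-fold on the lower side.

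The differences were spread unevenly over cells. At similar levels in RES-B, a UMI of AARS (131 CPM) was found in 45.9% of cells thinned to 5000 UMIs, that of PLA2G2A (130.1 CPM) in 26.1%, and that of IGFBP5 (114 CPM) in 15.9%. The tenth of RES-B cells with the most UMIs of the gene held 28.9% of its UMIs for AARS, 66.8% for PLA2G2A and 87.3% for IGFBP5. IGFBP5 and PLA2G2A were thus concentrated in few RES-B cells. In RES-A, IGFBP5 was found in 47.1% of cells. PAGE1, an X-linked cancer-testis gene at 360.3 CPM in RES-A against 70.4 CPM in RES-B, was found in 81.7% and 18.3% of cells, and VIM in 53.99% and 19.3%. The shares in unthinned cells, which the depth per cell also sets, were 74.7% and 32.8% for VIM. By contrast the abundant ER chaperones HSPA5 and HSP90B1 were broad in both lines. HSPA5 was found in 68.3% of cells in RES-A but 90.97% in RES-B, and HSP90B1 in 93.6% and 97.9%. The less abundant DNAJC3 was found in 10.8% of cells in RES-A and 30.3% in RES-B, and SEL1L in 14.8% and 34.8%. SPON2 was found in 30.8% of cells in RES-A but 88.96% in RES-B, and ASPH in 93.7% and 10.5%, in opposite directions.

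**Figure D4:**
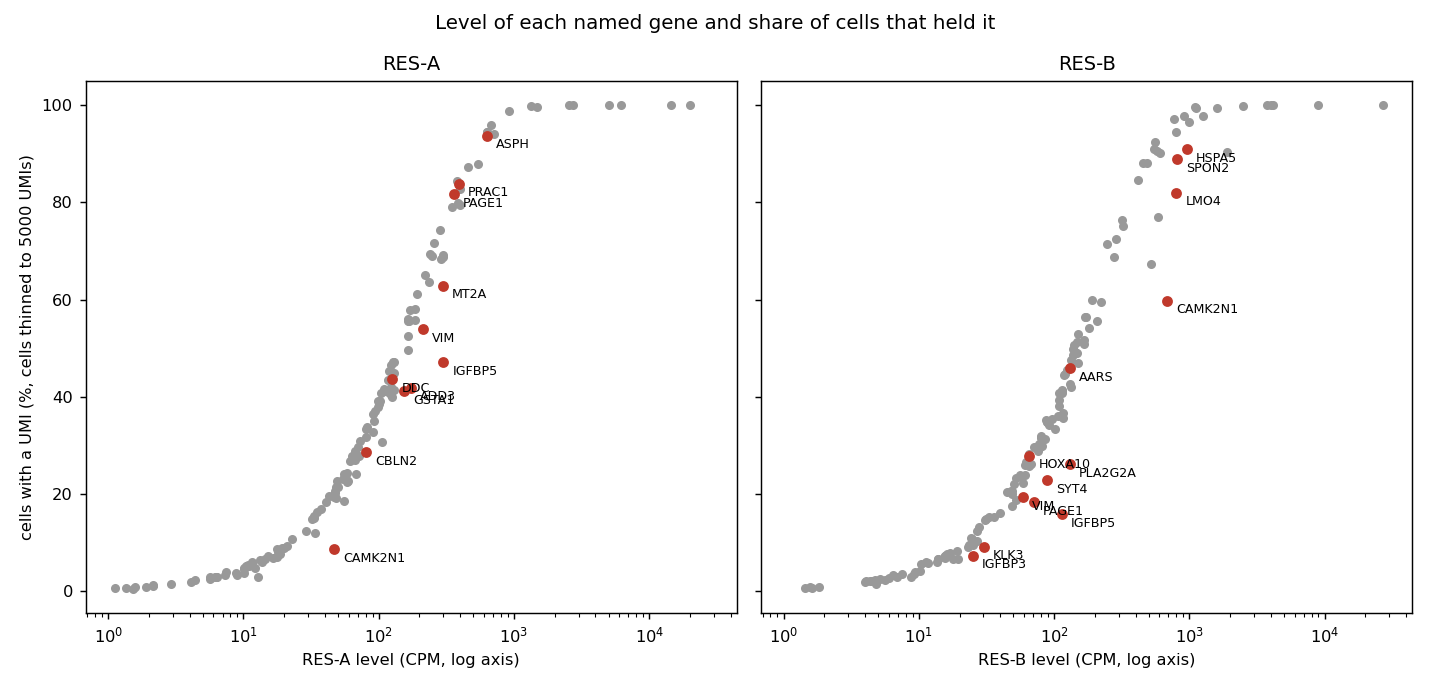
Level of each named gene at 1 CPM or more in the line (x axis, CPM, log axis) against the share of cells with at least 1 UMI (y axis, %, cells thinned to 5000 UMIs) in RES-A (left) and RES-B (right); red points carry names. Genes to the right of the main band, such as IGFBP5, PLA2G2A and CAMK2N1 in RES-B, reached their level in fewer cells than other genes of that level.

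Finally, neighbouring genes differed together over long stretches. Placed by gene ID on GRCh38, 714 of 827 tested genes of chromosome 1 were above 0 (median 0.39), as were 270 of 293 on chromosome 9 (0.47), 100 of 109 on chromosome 13 (0.58) and 102 of 112 on chromosome 18 (0.45). On chromosome 22, 152 of 174 were below 0 (-0.36), and on chromosome 11, 280 of 416 (-0.19). Chromosomes 6 and 15 were at 0.22 and 0.18, and the others between -0.10 and 0.07. Against LNCaP, where the medians of all genes were 0.05 in RES-A and 0.14 in RES-B, chromosomes 9, 13 and 18 were low in RES-A (-0.36, -0.35 and -0.37), with 0.12, 0.27 and 0.07 in RES-B. Chromosome 1 was at 0.03 in RES-A and 0.44 in RES-B, and chromosome 22 at 0.13 and -0.29. On other chromosomes both lines lay on the same side of LNCaP, at 0.47 and 0.48 on chromosome 21, -0.43 and -0.23 on chromosome 15, 0.25 and 0.28 on chromosome 12, and 0.20 and 0.47 on chromosome 6.

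Of 255 windows of 10 Mb with at least 10 tested genes, 5 had a median at least 0.5 above that of all genes and 10 at least 0.5 below. The lowest were on chromosome 8, at -0.88 for chr8:10000001-20000000, with 16 of 17 genes below 0, and -0.82 for chr8:30000001-40000000, with 19 of 20 below 0. In the first of these CNOT7, a deadenylase subunit, was at 119 CPM in RES-A against 61.4 CPM in RES-B, in the direction of its window, whereas FDFT1, the squalene synthase, was at 98.7 and 114 CPM (0.21, 0.16 to 0.26). BNIP3L lies in the window between them, chr8:20000001-30000000, whose median was -0.65 with 20 of 24 genes below 0, and was 2.26-fold higher in RES-B. The highest window was chr9:100000001-110000000, with a median of 0.80 and 15 of 15 genes above 0, including the DNA repair factor RAD23B at 81.9 and 143 CPM (0.80, 0.75 to 0.85). On chromosome 13, all 25 tested genes of chr13:40000001-50000000 were above 0 (median 0.73), with the translation-related TPT1 at 2548 and 3756 CPM (0.56, 0.55 to 0.57). Gene copy number was not analysed here. After each gene's chromosome median was subtracted, a choice made after seeing the data, 13 of the 16 list calls remained. These include the kallikrein and UGT2B lists, whose genes passed the minimum wholly or mostly through a single line. The ER chaperone list was at 0.92 with 22 of 22 genes above 0. The hypoxia list was at 0.45 and the cholesterol list at 0.39, while the glucocorticoid-induced list (0.13), the Notch list (-0.20) and the cancer-testis list (0.16) lost their calls. Subtracting a chromosome median leaves in place shifts over part of a chromosome. Chromosome 8 had a median of -0.002, although chr8:10000001-20000000 was at -0.88. The list calls were not tested against such regional shifts.

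**Figure D5:**
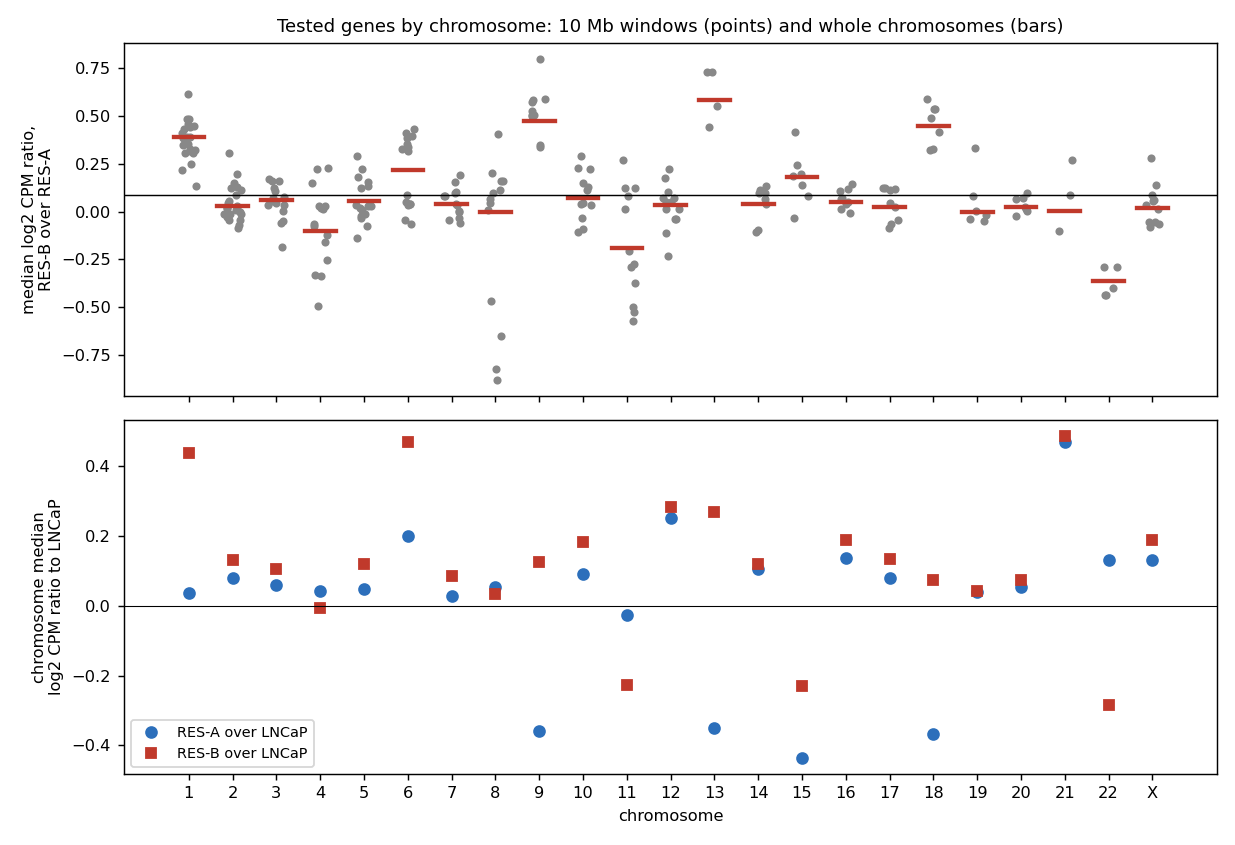
Upper panel, median log2 CPM ratio of RES-B over RES-A in 10 Mb windows (points) and whole chromosomes (red bars), with the median of all genes as a line; lower panel, chromosome medians of RES-A (circles) and RES-B (squares) over LNCaP on a log2 scale. Chromosomes 9, 13 and 18 are high in the upper panel and low for RES-A in the lower one, and chromosome 22 is low for RES-B in both.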

How the data were processed

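The libraries were made with the 10x 3′ v3 kit from sorted living cells, and per the labels the authors processed the reads with Cell Ranger 3.0.2 on its prebuilt GRCh38 reference. The deposited matrices hold whole-number counts of UMIs per gene and barcode, not normalized. Kept cells had at least 1500 genes, at least 5000 UMIs and under 20% mitochondrial UMIs. Doublets were not removed; an alternative left out the 5% of cells with most UMIs. UMIs were summed per gene and library and scaled to CPM. Called genes had a mean of at least 10 CPM and a 2-fold difference. With 1 library a group no test across libraries was possible, so no p-value was computed. Ratios carry exact conditional binomial 95% intervals (SciPy 1.17.1), levels exact Poisson intervals and shares of cells exact binomial intervals, for counting error only. A count of 0 was set to 3 UMIs per library and gives a bound. The ratio and interval steps were tested on simulated data.

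Named genes were the 15 highest and 15 lowest ratios among genes with at least 50 CPM in the higher line and 1 sign under every cell filter; in each of 44 lists, up to 4 genes past 2-fold on each side with at least 10 CPM in the higher line, and the most abundant member; a panel of androgen-induced and resistance-related genes; and the 2 most abundant genes of each window at least 0.5 from the median of all genes. Members and lists were chosen with earlier results of these data known. CRELD2, XBP1 and the marker genes were named outside this rule, as were the genes of the closing observations, which were chosen after their values were seen. Genes were placed by ID on GENCODE 44 (33113 of 33538 matched). Promoters were from RefSeq (GRCh38.p14), with 2 of 3 tested metallothioneins present. Alternatives changed the cell limits, the minimum level, the scaling and the cell cycle phase, and 1 chosen after seeing the data subtracted chromosome medians; they used edgeR 4.0.16 and DESeq2 1.42.0 for scaling factors alone, and Seurat 5.3.0 gene lists with scanpy 1.11.5 for phase calls. Some genes are not reported here.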

Additional observations from a re-analysis of the deposited data

Results flagged for a closer look

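Of the named genes, 9 were at least 2-fold higher than LNCaP in one resistant line and at least 2-fold lower in the other. With 1 library a line, the difference between the lines was not tested for any of them. Values are log2 ratios, first of RES-A over LNCaP, then of RES-B over LNCaP, then of RES-B over RES-A. HOXA10 was at -3.59 and 3.46 (7.06 between the lines), MT1F at -1.06 and 2.23 (3.29), and SPON2 at -1.88 and 1.06 (2.94). These 3 were above LNCaP in RES-B. The other 6 were above LNCaP in RES-A: CBLN2 at 3.18 and -7.41 (-10.59, with 3 UMIs set for the 0 in RES-B), LGALS1 at 4.65 and -1.21 (-5.86), PEG10, an imprinted gene derived from a retroelement, at 3.33 and -1.58 (-4.91), ASPH at 3.64 and -1.03 (-4.68), ADD3 at 3.11 and -1.12 (-4.23), and THRB at 1.41 and -1.46 (-2.88).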

How the results depend on the processing

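No paired analysis was possible because each line was 1 library and the labels give no shared replicate numbers. Both gene counts stayed within 1.5 times of 244 and 129 under the other cell filters, in G1 cells, in thinned cells and under both scaling factors. The minimum level set them: at 1 CPM, 660 genes were at least 2-fold higher in RES-B and 528 lower, and at 50 CPM, 64 and 42. With totals that left out mitochondrial and ribosomal protein genes, 213 genes were lower, and the cause was not tested. Of 100 named genes past 2-fold, SLC39A7 alone fell below it among the cell and scaling alternatives, under each change of scaling; within the smaller phases, 8 were below it in S cells and 12 in G2M cells, none with the other sign. Of the 16 list medians at least 0.25 from that of all genes, those that changed sign were of cancer-testis genes (main -0.20; 0.032 at 1 CPM, 0.48 at 50 CPM, 0.16 with chromosome medians subtracted) and of the TGF-beta list (main -0.17; 0.064 in G1 cells, 0.079 at 1 CPM); both main values rest on 5 genes, and the cause was not tested. Of the other list medians, 6 changed sign with chromosome medians subtracted. Depth sets the limit for the kallikreins in RES-A and PRAC1 in RES-B, which rest on few UMIs.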

Other observations

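Some genes outside the rule for named genes, chosen after their values were seen, also separated the lines. DNAJC15, a cochaperone of the mitochondrial inner membrane, had 1702 UMIs in LNCaP, 1915 UMIs in LNCaP-ENZ48 and 0 UMIs in RES-A, against 2261 UMIs in RES-B, so that RES-B was at least 766-fold higher when 3 UMIs are set for the 0. NDUFB4, a subunit of respiratory complex I, was at 728 CPM in LNCaP, 1069.8 CPM in LNCaP-ENZ48 and 1009 CPM in RES-A, against 189.97 CPM in RES-B. EIF1B, a translation initiation factor, was at 75.8, 81.8, 437 and 92.98 CPM in the same order. LPAR3, a lysophosphatidic acid receptor, was at 37.1, 12.2, 22.3 and 0.2599 CPM, and DOCK10, a guanine nucleotide exchange factor, at 0.0359, 0.117, 0.1705 and 22.8 CPM. RES-B was the lowest library for NDUFB4 and LPAR3 and the highest for DOCK10, EIF1B was highest in RES-A, and DNAJC15 had no UMI in RES-A alone.

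Cancer-testis genes, which are silent in most adult tissues outside the germ line, differed gene by gene. MAGEA10 was at 41.2 CPM in LNCaP, 41.2 CPM in LNCaP-ENZ48 and 47.9 CPM in RES-A, against 6.03 CPM in RES-B (log2 ratio of RES-B over RES-A -2.99, -3.15 to -2.83). PAGE1 was at 12.7, 11.6, 360.3 and 70.4 CPM (-2.36, -2.40 to -2.31), above both sensitive cultures in each line. Among imprinted genes, GRB10, an adaptor that dampens insulin receptor signalling, was at 42.3, 90.4, 102 and 39.5 CPM (-1.36, -1.43 to -1.29), and PHLDA2 at 45.03, 53.9, 58.5 and 24.6 CPM (-1.25, -1.34 to -1.16). Family members of MAGEA10 and PAGE1 are close in sequence, so that reads may have been split among them.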
